A study of Mus musculus with 4 samples.

Results

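The genes described here are 37 genes of the lysosome and of autophagy, of which 24 encode lysosomal hydrolases and membrane proteins and 13 encode autophagy machinery. They were picked by name, as probes whose accessions match these symbols in mouse RefSeq, with the subunits of the V-ATPase left out. All 37 were among the 16119 genes tested. They were measured on 4 Agilent 2-colour arrays hybridised with RNA of fluorescent cells of the collecting duct and ureteric bud, sorted from mice at postnatal day 1. The knockout cells came from HoxB7CreEGFP+; PRR flox/flox mice, in which Cre driven by the HoxB7 promoter recombines the floxed alleles of the (pro)renin receptor (PRR, gene Atp6ap2) in this epithelium. The wild-type cells came from CreEGFP+ PRR+/+ mice, so both groups carried the Cre and EGFP transgene and differed in the receptor alleles. RNA was pooled, with 0.5 µg per labelling reaction. The arrays named KO_vs_WT replicates 1 and 2 held Cy5-labelled knockout RNA together with Cy3-labelled RNA of wild-type pool 1 (replicate 1) or pool 2 (replicate 2). The arrays named WT_self replicates 1 and 2 held pool 1 or pool 2 in both dyes.

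The lysosome is the acidic organelle in which hydrolases degrade proteins, lipids and glycans, and autophagy is the pathway that encloses cytoplasm in a double membrane and delivers it there. The product of Atp6ap2 is an accessory protein of the proton pump that acidifies lysosomes. Many lysosome and autophagy genes are known targets of the transcription factor Tfeb and its relatives, which bind the palindrome CACGTG in promoters.

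The channel sources, on which the groups rest, conflict with the array titles, which call the KO_vs_WT arrays wild type and the self arrays KO. In the descriptions, pools 1 and 2 of the self arrays are swapped. All signs of knockout minus wild type would be reversed if the titles held. The targeted gene was lower on the arrays whose Cy5 source is the knockout. Atp6ap2 read 8.08 and 7.72 on the knockout arrays and 8.37 and 8.51 on the wild-type arrays on the log2 Cy5 scale, a difference of -0.54 ± 0.17 (SE, n = 2 each, limma adjusted p = 0.793). The sources used here do not say whether its probe lies within the floxed part of the gene. Cy3 of KO_vs_WT replicate 1 was almost empty, with 28 of 41174 probes well above background against 14935 to 18569 on the other arrays, so knockout and wild type were compared in Cy5. There 20794 to 22713 probes were well above background on the knockout arrays and 18421 to 20025 on the wild-type arrays. The collecting duct and ureteric bud markers were present, with 16 of 16 tested.

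Between knockout and wild type, Sqstm1, Grn, Gaa, Ctsd, Ulk1, Gabarapl1, Gabarap, Gusb, Npc2 and Map1lc3b had both knockout readings above both wild-type readings. Lgmn, Ctsz, Atg12, Atg7 and Ctss had both below. Among all genes measured on every array, 22.5% lay above and 17.1% below in this way. None of the 37 genes passed the test. In limma's test with Benjamini-Hochberg adjustment 0 of 16119 genes, 0%, had an adjusted p under 0.05, the smallest being 0.732 over all genes and 0.793 among the 37. At an unadjusted p under 0.05 there were 706 genes, of which Gaa, Grn and Sqstm1 are members. With 2 arrays against 2, an exact two-sided permutation test of a single gene cannot give a p under 0.333. In bulk RNA of pooled cells, fewer cells of a type and less RNA per cell cannot be told apart.

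Of the 23 lysosomal genes measured on all 4 arrays, 5 lay above both wild-type arrays on both knockout arrays, against 22.5% of all 15972 genes so measured, and 3 lay below, against 17.1%. Of the 13 autophagy genes 5 lay above and 2 below. The median difference, knockout minus wild type, was -0.12 over the lysosomal genes, 0.083 over the autophagy genes and 0.025 over all genes on the log2 scale. With the mean over each gene's probes in place of the brightest probe, the medians were -0.024 (lysosome) and 0.00088 (autophagy). With each array scaled to its median in place of quantile normalization, the medians were 0.34 (lysosome), 0.52 (autophagy) and 0.33 (all genes), so the lysosomal sign turned. The shares of lysosomal genes without overlap were near those of all genes. Between arrays of the same group the medians of the lysosomal and autophagy lists varied with an SD of 0.21 and 0.090.

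**Figure D1:**
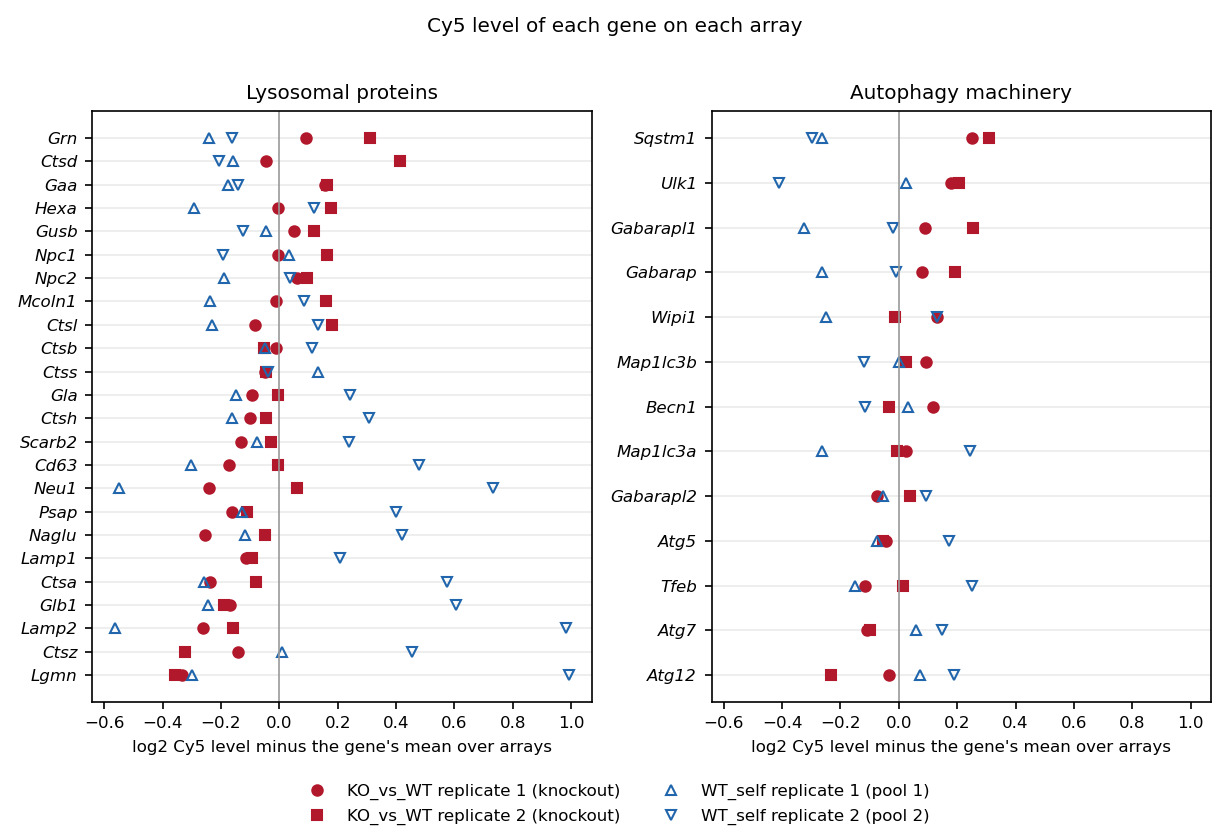
Log2 Cy5 level of each of the 37 genes on the 2 knockout arrays (filled red) and the 2 wild-type arrays (open blue), as the deviation from that gene's mean over the arrays that measured it; genes run from the highest knockout minus wild-type difference at the top. In the lysosomal panel the array of pool 2 lies far to the right of the other arrays for Lgmn, Lamp2, Glb1, Ctsa, Neu1 and Cd63.

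Promoter windows could be read for 31 of the 37 genes, from 250 bases before to 50 bases after the transcript start in RefSeq's annotation of GRCm38.p6. The palindrome CACGTG, which reads the same on both strands, was present in 12 of the 31, 38.7%, made up of 10 of 21 lysosomal genes (47.6%) and 2 of 10 autophagy genes. It was present in 8.09% of all 27025 genes with a window and in 11.8% of the 8454 with a window that were tested on these arrays. Of the members 4 had several windows, and a gene counted if any of its windows held the motif. The longer TCACGTGA, which contains the palindrome, was found in Ctsa, Ctsd, Gla and Mcoln1, 12.9% of the 31 genes. It was found in 1.12% of all genes with a window and 2.22% of those tested on these arrays. With a G before and a C after it, this longer motif was found in 0 of the 31 genes. The shares were 0.37% of all genes with a window and 0.769% of those tested. The last 120 bases before the transcript start are shown for 6 genes that carry the palindrome there, in capitals. Lamp1 and Mcoln1 are shown for its repeats, Ctsd as a gene that read higher on both knockout arrays, and Lgmn, Glb1 and Ctsa because they differed most between the wild-type pools among genes with the palindrome. The stretches lie at chr8:13159041-13159160 (+) for Lamp1, chr8:3500399-3500518 (+) for Mcoln1, chr7:142387828-142387947 (-) for Ctsd, chr12:102439093-102439212 (-) for Lgmn, chr9:114400958-114401077 (+) for Glb1 and chr2:164833653-164833772 (+) for Ctsa.
Lamp1: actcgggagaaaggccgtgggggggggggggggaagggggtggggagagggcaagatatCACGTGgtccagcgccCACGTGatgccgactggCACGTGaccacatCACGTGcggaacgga
Mcoln1: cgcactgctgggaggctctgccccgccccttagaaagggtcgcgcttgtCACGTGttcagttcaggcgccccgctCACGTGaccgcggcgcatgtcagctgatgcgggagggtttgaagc
Ctsd: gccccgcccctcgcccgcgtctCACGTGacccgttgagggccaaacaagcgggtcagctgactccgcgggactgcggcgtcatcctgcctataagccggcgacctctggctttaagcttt
Lgmn: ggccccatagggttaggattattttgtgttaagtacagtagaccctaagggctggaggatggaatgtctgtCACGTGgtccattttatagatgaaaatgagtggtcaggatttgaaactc
Glb1: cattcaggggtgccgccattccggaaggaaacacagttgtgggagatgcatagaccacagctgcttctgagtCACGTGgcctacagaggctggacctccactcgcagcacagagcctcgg
Ctsa: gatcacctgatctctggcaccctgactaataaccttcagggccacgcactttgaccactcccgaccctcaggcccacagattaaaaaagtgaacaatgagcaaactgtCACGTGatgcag

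The genes with the palindrome did not share 1 direction. They included Ctsd and Gaa, with differences of 0.37 and 0.32, as well as Lgmn and Glb1, with differences of -0.69 and -0.36 (log2, knockout minus wild type). Within the stretches shown, Lamp1 held 4 copies and Mcoln1 held 2.

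The cargo receptor Sqstm1 encodes p62, which binds ubiquitinated cargo and is itself degraded with it. Its log2 Cy5 level was 12.44 and 12.49 on the knockout arrays and 11.92 and 11.89 on the wild-type arrays. Both knockout arrays were high, the wild-type arrays were alike, and the groups did not overlap. The difference was 0.56 ± 0.11 (SE, n = 2 each, limma adjusted p = 0.793), with 0.54 against pool 1 and 0.58 against pool 2. The 2 wild-type pools differed by -0.034 in Cy5 and -0.025 in Cy3 (pool 2 minus pool 1). The knockout minus wild-type difference was 0.090 from the scanner software's processed Cy5 signal. It was 0.18 from log2 ratios of Cy5 over Cy3, which include the array with the empty Cy3 channel.

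Ulk1, the kinase that starts autophagy, read 10.93 and 10.95 on the knockout arrays and 10.77 and 10.33 on the wild-type arrays. The knockout arrays were high and nearly equal, and pool 2 was the low one, so the groups did not overlap. The difference was 0.39 ± 0.18 (SE, limma adjusted p = 0.793), made up of 0.17 against pool 1 and 0.60 against pool 2. Tfeb, the transcription factor of the list, read 6.62 and 6.75 on the knockout arrays and 6.58 and 6.98 on the wild-type arrays. The knockout arrays lay between the wild-type pools, and the difference was -0.10 ± 0.17 (SE).

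The ubiquitin-like proteins of the LC3 and GABARAP families are coupled to lipid in the autophagosome membrane and recruit cargo receptors. Gabarapl1 read 13.31 and 13.47 on the knockout arrays and 12.89 and 13.20 on the wild-type arrays. Gabarap read 10.30 and 10.41 on the knockout arrays and 9.95 and 10.20 on the wild-type arrays. In both genes the knockout arrays were above the wild-type arrays, with pool 1 the lowest, and the differences were 0.34 ± 0.16 and 0.27 ± 0.14 (SE, limma adjusted p = 0.793 each). The difference of Gabarapl1 was 0.50 against pool 1 and 0.19 against pool 2, and that of Gabarap 0.40 against pool 1 and 0.15 against pool 2. From log2 ratios of Cy5 over Cy3, with the same empty channel, Gabarapl1 gave 0.23 and Gabarap turned to -0.013. A second probe of Gabarapl1 gave 0.14.

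Map1lc3b read 11.26 and 11.20 on the knockout arrays and 11.17 and 11.05 on the wild-type arrays. The groups were next to each other without overlap, a difference of 0.12 ± 0.12 (SE). Its second probe, also measured, gave -0.15. Map1lc3a read 8.52 and 8.49 on the knockout arrays and 8.23 and 8.74 on the wild-type arrays. Gabarapl2 read 9.19 and 9.31 on the knockout arrays and 9.22 and 9.36 on the wild-type arrays. Both overlapped, Map1lc3a with its knockout values between the pools, and their differences were 0.019 ± 0.20 and -0.038 ± 0.12 (SE).

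Members of the conjugation systems differed in the other direction. Atg7, the activating enzyme that serves both ubiquitin-like systems, read 6.62 and 6.63 on the knockout arrays and 6.79 and 6.88 on the wild-type arrays, a difference of -0.21 ± 0.11 (SE). Atg12, the ubiquitin-like protein joined to Atg5, read 8.66 and 8.46 on the knockout arrays and 8.77 and 8.88 on the wild-type arrays, a difference of -0.26 ± 0.13 (SE). In both genes the knockout arrays were the low ones and the groups did not overlap. Atg7 was dim, and in Cy3 its probe was well above background on 2 arrays, against 3 for Atg12. The same held for the dim probes of Tfeb and Ctss. Atg5 had its knockout values between the pools, with a difference of -0.097. Becn1, a subunit of the lipid kinase complex that nucleates the membrane, and Wipi1, a reader of its product, differed by 0.083 and 0.12 with overlap.

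Among the lysosomal hydrolases, Ctsd encodes the aspartyl protease cathepsin D. It read 12.61 and 13.07 on the knockout arrays and 12.50 and 12.45 on the wild-type arrays. The groups did not overlap, but knockout replicate 2 was the high one and replicate 1 was close to wild type. The difference was 0.37 ± 0.18 (SE, limma adjusted p = 0.793), and it was 0.60 without knockout replicate 1 and 0.14 without replicate 2. A second probe of Ctsd gave 0.36, and the log2 ratios of Cy5 over Cy3 gave 0.25 for the gene.

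Gaa, the acid alpha-glucosidase that degrades glycogen in the lysosome, read 9.77 and 9.78 on the knockout arrays and 9.44 and 9.48 on the wild-type arrays. Both pairs were tight and apart from each other, with a difference of 0.32 ± 0.11 (SE, limma adjusted p = 0.793). From log2 ratios of Cy5 over Cy3, with the empty channel included, the direction of Gaa turned, at -0.025. Grn, which encodes progranulin, a precursor cleaved to granulins in the lysosome, read 10.50 and 10.72 on the knockout arrays and 10.17 and 10.25 on the wild-type arrays. Both knockout arrays were higher, by 0.44 against pool 1 and 0.36 against pool 2, a difference of 0.40 ± 0.13 (SE, limma adjusted p = 0.793). A second, dimmer probe of Grn read 7.31 and 7.59 on the knockout arrays and 7.44 and 7.24 on the wild-type arrays. There the groups overlapped and the difference was 0.11, and the dye ratios of the gene gave 0.18. Gusb, the beta-glucuronidase, and Npc2, a soluble cholesterol carrier, also lay above both wild-type arrays, by 0.17 and 0.15.

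Lgmn encodes legumain, a protease that cleaves after asparagine and matures several cathepsins. It read 9.79 and 9.77 on the knockout arrays and 9.82 and 11.12 on the wild-type arrays. The knockout arrays and pool 1 were nearly equal and pool 2 alone was high. The difference of -0.69 ± 0.43 (SE, limma adjusted p = 0.793) was -0.046 against pool 1 and -1.34 against pool 2.

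Ctsz, the carboxypeptidase cathepsin Z, read 9.83 and 9.65 on the knockout arrays and 9.98 and 10.43 on the wild-type arrays. Both knockout arrays were lower than both wild-type arrays, and pool 2 was the highest. The difference was -0.47 ± 0.19 (SE, limma adjusted p = 0.793), or -0.24 against pool 1 and -0.69 against pool 2. Ctss, a cathepsin of antigen-presenting cells, read 6.93 and 6.94 on the knockout arrays and 7.11 and 6.94 on the wild-type arrays, a difference of -0.094 within which pool 2 was level with the knockout.

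Of the membrane proteins, Lamp2 read 9.66 and 9.76 on the knockout arrays and 9.35 and 10.90 on the wild-type arrays. The knockout arrays lay between the pools. Its difference of -0.42 ± 0.51 (SE) was 0.35 against pool 1 and -1.19 against pool 2. A second probe of Lamp2, designed to another transcript accession, read 9.37 and 9.40 on the knockout arrays and 8.97 and 9.24 on the wild-type arrays, so there both knockout arrays were above both wild-type arrays.

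Lamp1 read 10.87 and 10.89 on the knockout arrays and 11.19 on the array of pool 2. Its only probe lies in a dark patch of the array of pool 1 and has no usable value there. Knockout minus wild type was -0.31 ± 0.15 (SE), resting on 1 wild-type array. With the dark patch kept the difference was 2.16.

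The 8 lysosomal genes whose groups overlapped without lying between the pools differed by -0.30 to 0.17. They are the proteases Ctsb and Ctsl, the glycosidases Hexa and Naglu, the cholesterol transporter Npc1, the calcium channel Mcoln1, the saposin precursor Psap and Scarb2, the receptor that carries glucocerebrosidase to lysosomes. Naglu at -0.30 and Psap at -0.27 were the lowest of them and Hexa at 0.17 the highest. Hexa was 0.38 against pool 1 and -0.031 against pool 2, and the sign also differed by pool in Ctsb, Ctsl and Mcoln1.

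Of the 17 members with more than 1 measured probe, 9 had probes that differed in sign for knockout minus wild type. These were Ctsa, Ctsb, Gla, Lamp2, Map1lc3b, Neu1, Psap, Scarb2 and Wipi1. For Ctsd, Ctsz, Grn, Gabarap, Gabarapl1, Ulk1, Glb1 and Atg12 the probes had the same sign. The second probe of Ulk1 had no value in pool 1. Its difference of 0.23 is against pool 2 alone, where the first probe gave 0.60.

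Against pool 1 alone, 0 of the 23 lysosomal genes and 0 of the 13 autophagy genes were at least 1.5-fold higher or lower in knockout, beside 1.1% higher and 0.513% lower among all genes. The largest were Sqstm1 at 1.46-fold and Gabarapl1 at 1.41-fold. The median difference was 0.10 for both lists, against 0.00040 for all genes. With 1 array of each pool, the comparisons with a single pool have no replicate check.

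Against pool 2 alone, 6 of the 24 lysosomal genes, Lamp2, Ctsa, Ctsz, Glb1, Neu1 and Lgmn, were at least 1.5-fold lower in knockout, beside 5.5% of all genes, and 0 were at least 1.5-fold higher, beside 6.91%. Glb1 is beta-galactosidase, Neu1 the sialidase and Ctsa the carboxypeptidase that holds both in 1 complex. These counts rest on the brightest probe of each gene. By the mean of the knockout arrays, further measured probes of Lamp2, Ctsa, Ctsz, Glb1 and Neu1 were not 1.5-fold lower than pool 2. The second probe of Lamp2 read 9.37 and 9.40 on the knockout arrays and 9.24 in pool 2. That of Neu1 read 8.81 and 8.88 against 9.22, and that of Ctsz 9.49 and 9.17 against 9.78. A second, dimmer probe of Glb1 read 7.26 and 7.22 on the knockout arrays, 7.48 in pool 2 and 7.33 in pool 1. Just outside the limit were Naglu at 0.673 and Cd63 at 0.674 of the level in pool 2. Of the 13 autophagy genes, Ulk1 was at least 1.5-fold higher, at 1.52-fold, with Sqstm1 just under at 1.49-fold, and 0 were at least 1.5-fold lower. From the mean over each gene's probes, the lysosomal and autophagy medians were -0.11 each. By the brightest probe the lysosomal median was -0.30 and the autophagy median -0.070, against 0.049 for all genes. With each array scaled to its median in place of quantile normalization these turned to 0.45 and 0.83, but all genes then had a median of 0.59, and the lysosomal median was below it while the autophagy median was above it. Relative to all genes under that scaling, 2 lysosomal genes, Lamp2 and Lgmn, were at least 1.5-fold lower and 2, Gaa and Grn, at least 1.5-fold higher, whereas relative to all genes with quantile normalization 9 were lower and 0 higher. Proximal tubule markers moved with this comparison, with a median of -2.79 over 6 markers against pool 2 and -0.30 over 5 against pool 1, and their part in the result was not tested.

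The same comparison could be made within 1 array, from the ratio of knockout to pool 2 on KO_vs_WT replicate 2 less the ratio of pool 2 to itself on WT_self replicate 2. It shares the Cy5 signals of both arrays with the comparison above and adds their Cy3 signals. By the same brightest probes, the same 6 lysosomal genes were at least 1.5-fold lower in knockout, beside 5.31% of all genes. Their log2 differences were -1.34 for Lgmn, -1.13 for Lamp2, -0.94 for Glb1, -0.86 for Ctsz, -0.66 for Ctsa and -0.64 for Neu1. Ctsd at 0.60 and Ulk1 at 0.66 were at least 1.5-fold higher, beside 5.28% of all genes, and Atg12 at -0.59 was lower. Sqstm1 stood at 0.55.

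**Figure D2:**
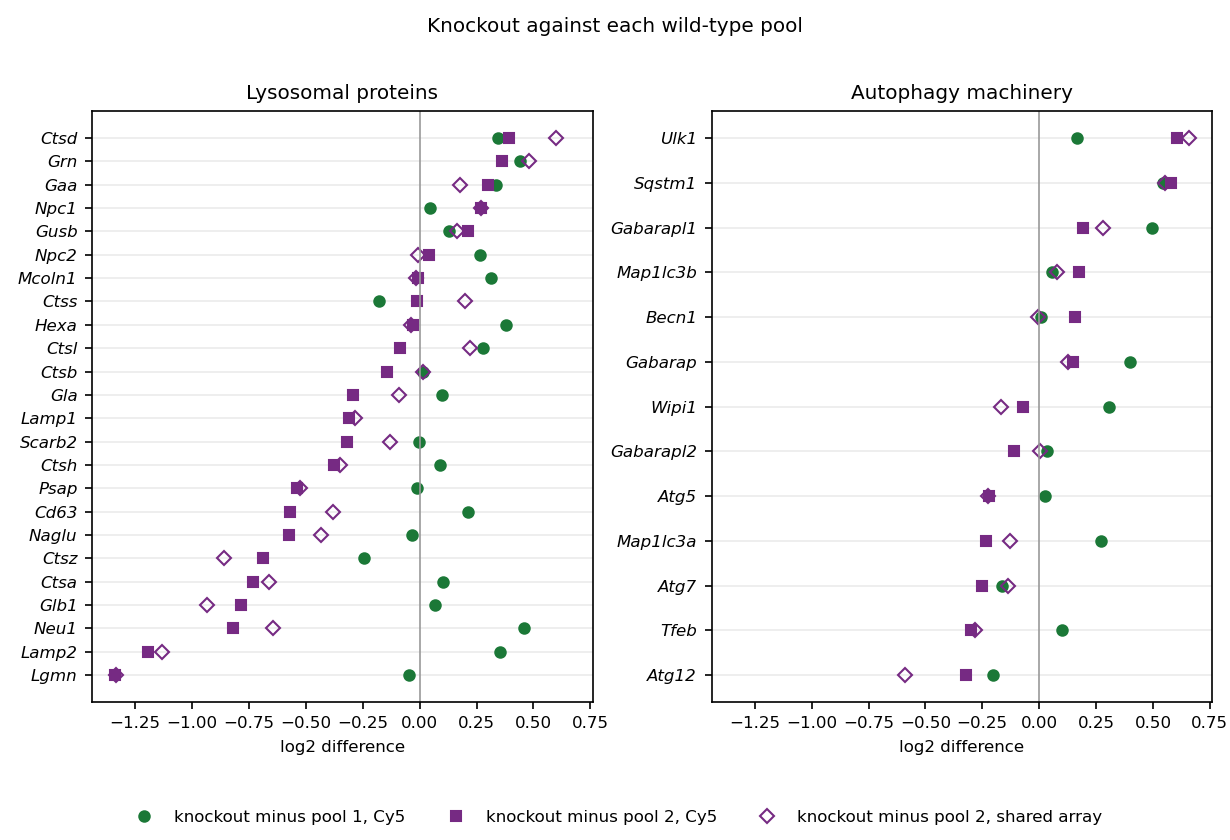
Log2 difference of the knockout from pool 1 in Cy5 (green circles, mean of 2 knockout arrays), from pool 2 in Cy5 (filled purple squares) and from pool 2 on the shared array (open purple diamonds), for the 24 lysosomal and 13 autophagy genes. From Psap downwards the lysosomal genes lie near 0 or above against pool 1, apart from Ctsz at -0.24, and near -0.4 or lower against pool 2.

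Pool 2 read higher than pool 1 in most lysosomal genes, 19 of 23 in Cy5 and 20 of 23 in Cy3, with quantile normalization. Pool 2 was at least 1.5-fold above pool 1 in 6 of the 23 lysosomal genes with both values in Cy5, beside 6.07% of all genes, and in 7 of 23 in Cy3, beside 3.91%. Lower by as much were 0 of 23 in either dye, beside 7.11% of all genes in Cy5 and 3.38% in Cy3. Of the 13 autophagy genes 0 passed 1.5-fold in either direction or dye.

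In Cy5 the 6 genes were Lamp2 at 2.92-fold, Lgmn at 2.45-fold, Neu1 at 2.43-fold, Glb1 at 1.80-fold, Ctsa at 1.78-fold and Cd63 at 1.72-fold. In Cy3 the same 6 were 2.59-fold, 2.56-fold, 2.53-fold, 1.73-fold, 1.96-fold and 1.93-fold. Psap was at 2.28-fold in Cy3 and 1.44-fold in Cy5. Cy3 of KO_vs_WT replicate 2, a further labelling of pool 2, gave 2.58-fold for Lamp2 and 2.51-fold for Lgmn over pool 1. The members nearest to no difference between the pools were Sqstm1, Gaa and Ctsd in Cy5. In Cy3 the pools differed by -0.025 for Sqstm1, but by 0.25 for Gaa and 0.24 for Ctsd (log2, pool 2 minus pool 1). Grn differed by 0.081 in Cy5 and 0.34 in Cy3.

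The lysosomal median, pool 2 minus pool 1, was 0.39 in Cy5 and 0.34 in Cy3, against -0.041 and -0.014 for all genes. With each array scaled to its median it turned to -0.33, beside -0.54 for all genes, and 17 of 23 lysosomal genes lay above the median of all genes, against 19 of 23 with quantile normalization. Relative to all genes under that scaling, 5 of 23 were at least 1.5-fold higher in pool 2, namely Cd63, Ctsa, Lamp2, Lgmn and Neu1, and 0 were lower. From the scanner software's processed signal these were 9 of 23, and 3 of the 13 autophagy genes (Map1lc3a, Tfeb and Wipi1) passed as well. The autophagy median was 0.15 in Cy5 and 0.13 in Cy3, and -0.56 with each array scaled to its median. The second probe of Lamp2 differed by 0.28 between the pools in Cy5, against 1.55 for the first, and that of Glb1 by 0.15, against 0.85. The second probe of Neu1 differed by 1.09, against 1.28, and the further probes of Ctsa by 0.60 and 0.37, against 0.83.

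**Figure D3:**
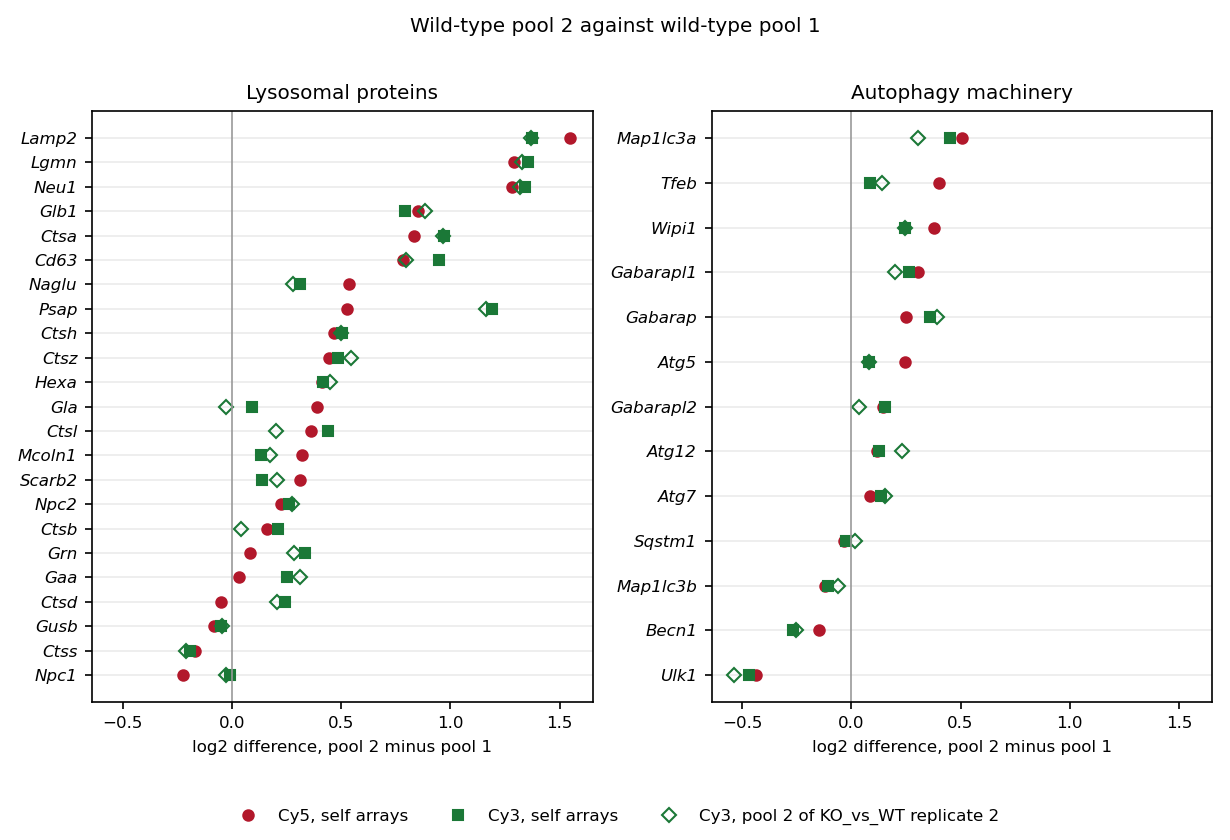
Log2 difference of wild-type pool 2 from wild-type pool 1 in Cy5 of the self arrays (red circles), in Cy3 of the self arrays (green squares) and with Cy3 of KO_vs_WT replicate 2 as pool 2 (green diamonds), by gene, without Lamp1, which has no value in pool 1. Lamp2, Lgmn and Neu1 lie beyond 1 in all 3, Ulk1 lies near -0.5 in all 3, and Psap is separated between the dyes.

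Between the pools, above pool 1 and below pool 2 on both knockout arrays, lay 7 of the 23 lysosomal genes (Lamp2, Ctsa, Ctsh, Gla, Glb1, Neu1 and Cd63) and 3 of the 13 autophagy genes (Tfeb, Map1lc3a and Atg5), beside 11.6% of all genes. For these 10 genes the sign of a difference between knockout and wild type depends on the pool. By the mean of the 2 knockout arrays, the sign also depends on it for Ctsb, Ctsl, Hexa, Mcoln1, Gabarapl2 and Wipi1.

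Markers of another epithelium moved with the pools. Proximal tubule markers, of which 6 of 10 were tested and 5 measured on all 4 arrays, summed to 1015 and 872 units of linear Cy5 signal on the knockout arrays and to 9108 in pool 2 and 1249 in pool 1. The proximal tubule median, pool 2 minus pool 1, was 2.12 over 5 markers in Cy5 and 1.36 over 6 in Cy3, so the 2 dyes cover unlike sets. Cubn, Lrp2 and Miox had no probe named by RefSeq. Collecting duct and ureteric bud markers, 15 of 16 on all 4 arrays, summed to 60147 and 62580 on the knockout arrays, 49325 in pool 2 and 59265 in pool 1. Krt18 and Krt8, with knockout means of 14.62 and 13.11 (log2), were the brightest and weigh most in these sums. The collecting duct median was 0.28 for knockout minus wild type and -0.38 for pool 2 minus pool 1. Of the 16 markers 13 were higher in knockout. The 3 lower were Calb1 at -0.56, Wnt11 at -0.47 (against pool 2 alone) and Ret at -0.29. Stroma markers (7 of 8) summed to 2867 and 2426 on the knockout arrays, 1798 in pool 2 and 3489 in pool 1, with Col1a2 the brightest of them.

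Leukocyte markers, 9 of 14 tested, summed to 1319 and 1253 on the knockout arrays, 1286 in pool 2 and 1412 in pool 1, with Itgam, Cx3cr1 and Mrc1 not well above background on any array. Endothelium markers (5 of 9) summed to 778 and 678 on the knockout arrays, 708 in pool 2 and 848 in pool 1. Signals of both lists were low on the log2 Cy5 scale. Leukocyte markers read 6.55 to 7.80, apart from Ptprc at 7.96 to 8.30, and endothelium markers 6.72 to 7.76. The normexp offset of 50 is part of each signal, so near-equal sums do not show equal content of these cells. The part of any of these cells in the lysosomal differences was not tested.

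**Figure D4:**
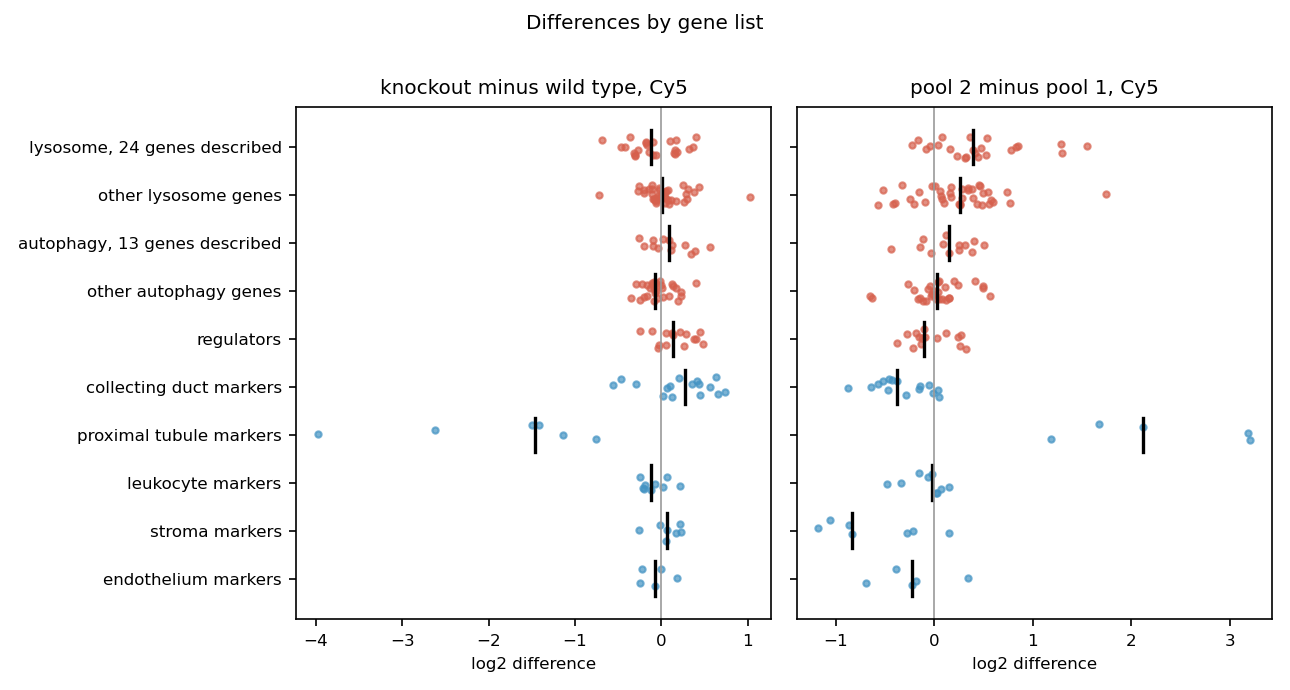
Log2 differences in Cy5 of single genes (points) and list medians (black bars), knockout minus wild type on the left and pool 2 minus pool 1 on the right, for lysosome, autophagy and regulator genes (red) and cell type markers (blue). The proximal tubule markers lie at the far ends of both panels, and the medians of both lysosome lists lie above 0 on the right with the quantile normalization used here.

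Other genes of these pathways were read from lists of the same kind, again with 0 called by limma. Of 39 of 46 further lysosome genes tested, 7 lay above and 2 below wild type without overlap, beside 22.5% above and 17.1% below among all genes. The largest was Laptm4a, a membrane protein of late endosomes and lysosomes. It read 12.64 and 13.39 on the knockout arrays and 12.28 and 11.71 on the wild-type arrays, all apart. The difference was 1.02 ± 0.32 (SE, limma adjusted p = 0.793). Arsa, the sulfatase of sulfatides, followed at 0.44 and Clcn7, the lysosomal chloride-proton exchanger, at 0.37, while the 2 lower genes, Ppt1 and Acp2, differed by -0.062 and -0.047. Arsa was 0.61 against pool 1 and 0.27 against pool 2, and Clcn7 0.16 and 0.58. Lipa, the acid lipase, was also high in pool 2 alone, at 7.36 and 7.48 on the knockout arrays, 9.01 in pool 2 and 7.27 in pool 1.

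Of 30 of 34 further autophagy genes, 7 lay above and 9 below, beside the same 22.5% and 17.1% of all genes. Atg16l1, the partner of Atg5 and Atg12 in the conjugation complex, differed by 0.40, Uvrag, a partner of Becn1, and Optn, a cargo receptor, by 0.23 each. Atg16l1 was 0.082 against pool 1 and 0.71 against pool 2, Uvrag 0.25 and 0.21 and Optn 0.30 and 0.16. The lower genes were led by Rab7, the GTPase of late endosomes, at -0.35, Atg4a, a protease of LC3-like proteins, at -0.25 and Wipi2, which recruits Atg16l1 to the membrane, at -0.23. Rab7 was -0.10 against pool 1 and -0.59 against pool 2, Atg4a -0.21 and -0.29 and Wipi2 -0.23 and -0.22. Of 15 of 18 regulators, 9 lay above and 1 below, again beside 22.5% and 17.1%. Flcn, the folliculin GTPase-activating protein, differed by 0.48 ± 0.15 (SE), its partner Fnip1 by 0.45 ± 0.14 (SE) and the mTORC1 inhibitor Tsc1 by 0.40 ± 0.17 (SE), each with a limma adjusted p of 0.793. Flcn was 0.34 against pool 1 and 0.62 against pool 2, Fnip1 0.40 and 0.50 and Tsc1 0.21 and 0.58. Mitf, a relative of Tfeb, was the lower gene at -0.25.

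The number of genes called differed with the wild-type array left out. Without the array of pool 1, 4196 of 16118 genes, 26%, and 12 of the 37 members passed an adjusted p under 0.05 in limma's test, which then rests on 1 wild-type array assumed to vary like the knockout arrays. Over both directions the members' share was near that of all genes. Of the 12, Sqstm1 and Ulk1 were higher in knockout, beside 15.6% of all genes, and Lgmn, Lamp2, Neu1, Glb1, Ctsa, Ctsz, Naglu, Cd63, Psap and Ctsh were lower, beside 10.4% of all genes. Without the array of pool 2, 3 of 15975 genes, 0.0188%, and 0 members passed, and the 3 genes were higher.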

How the data were processed

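Groups follow the source name of each channel. Per the file headers, the scanner software was Agilent Feature Extraction 10.7.3.1. Each deposited file holds, for every spot, intensity per dye as a median with local background, and a processed signal corrected for background and dye, as their headers state. The log10 ratio deposited with each spot is of Cy5 over Cy3, and the series table equals it in 45018 of 45018 spots on each array. Other deposited columns mark spots well above background, saturated (0 here) or non-uniform, per the file headers.

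Median Cy5 intensities were corrected with normexp (offset 50), quantile normalized over the 4 arrays and tested as log2 values with limma 3.58.1 in R 4.3.3, two-sided, with Benjamini-Hochberg adjustment at 0.05. Non-uniform spots and 411 spots of a dark patch of WT_self replicate 1 were left out. That patch was found as windows of 11 by 11 spots in which over 10% of brighter spots had lost over 2 log2 units. A probe entered if well above background on both arrays of 1 group, and the brightest probe stood for its gene, giving 16119 genes, 10511 with a symbol. The shared-array ratio used normexp and loess. Scripts were tested on simulated data. All arrays lie on 1 slide and 1 scan.

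Per-array values are given for members without overlap between the groups that differ by at least 0.3, and for 10 fixed members (Tfeb, Lamp1, Lamp2, Ctsd, Sqstm1, Map1lc3a, Map1lc3b, Gabarap, Gabarapl1 and Gabarapl2). Of each further list, the 3 largest differences per direction without overlap are named, and Lipa, the second probes and the per-array values of Atg7, Atg12 and Ctss were chosen after their values were seen. The members and lists were chosen with earlier results of these data known. The sources used here do not say whether replicate arrays hold RNA of separate animals, so the p-values reflect array-to-array spread that may be technical. Alternatives covered background correction, scaling, filters, probes, the dark patch, each array left out, a replicate block and dye ratios.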

Additional observations from a re-analysis of the deposited data

How the results depend on the processing

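The number of arrays limits precision. In Cy5 all 37 genes were well above background on 3 arrays and 36 on WT_self replicate 1, and in Cy3 0 were on KO_vs_WT replicate 1. With each array scaled to its median, all genes had medians of 0.33 for knockout minus wild type and -0.54 for pool 2 minus pool 1, and the cause was not tested. The knockout minus wild-type medians then became 0.34 (lysosome) and 0.52 (autophagy), the autophagy median against pool 1 was 0.23, those against pool 2 were 0.45 and 0.83 (lysosome and autophagy), and the pool 2 minus pool 1 medians were -0.33 and -0.56. Knockout minus wild type changed sign under it in 18 of the 37 genes, among them Ctsz (0.0810), Tfeb (0.0410), Lamp1 (0.62), Lamp2 (0.13) and Gabarapl2 (0.49). Relative to the median of all genes 8 changed sign, and Ctsz (-0.25), Tfeb (-0.29) and Lamp2 (-0.20) did not.

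The processed signal turned Map1lc3a to -0.00505 and Gabarapl2 to 0.0198. The mean over a gene's probes turned Map1lc3b to -0.0151 and gave an autophagy median of 0.25 for pool 2 minus pool 1. It brought the knockout minus wild-type medians to -0.024 (lysosome) and 0.00088 (autophagy). Against pool 2 it gave -0.11 for both lists. Keeping the dark patch turned Lamp1 to 2.16. Dye ratios, of which 1 knockout array lacks Cy3, turned the autophagy median to -0.0524, Gaa to -0.0249, Map1lc3a to -0.0831 and Gabarap to -0.0132. The deposited log ratio gave a lysosomal median of -0.32 on the shared array, against -0.11. The cause of these shifts was not tested.

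Leaving out each array in turn gave 0 to 4196 genes called, 0 to 2 members higher and 0 to 10 lower. The medians ranged over -0.30 to 0.10 (lysosome) and -0.0701 to 0.15 (autophagy). Tfeb ranged over -0.30 to 0.10, Lamp2 over -1.19 to 0.35, Map1lc3a over -0.23 to 0.27 and Gabarapl2 over -0.11 to 0.0355. Array numbers do not pair the samples by the labels, and the deviations of same-numbered arrays correlated at r = 0.0373 across 15972 genes. With the replicate block 0 genes passed, and the medians were -0.0958 (lysosome, 23 genes) and 0.0834 (autophagy). The settings tried on the knockout against a single pool in Cy5, the processed signal, mean over probes and further Cy3 labelling for pool 2 against pool 1, and the deposited ratio were chosen after the data were seen.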
